A study of Homo sapiens with 6 samples.

Results

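The solute carrier and ABC transporter genes described here are the rows of the deposited table whose symbol starts with SLC or with ABC and a subfamily letter from A to G, each followed by a number, and that the table's own annotation does not place in the lysosome pathway. The rule found 14 genes of the 1099 genes in the table, and the lysosome condition removed none of them. GENCODE release 29 holds 419 protein-coding genes with such names, and those outside the table were not analysed here. The table is itself a selection by outcome: its 1099 genes are those with the smallest p of 11289 genes in the authors' own comparison, the largest p being 0.00535. Every gene in it was therefore picked for differing between the groups, and each count of changed members is read beside the same count over the table. A member that does not pass the test used here still had a p of 0.00535 or less in the authors' comparison. It is not shown to be unchanged.

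The libraries came from AGS cells, an established line from a human gastric adenocarcinoma, labelled wild type. There were 3 libraries of cells given vehicle and 3 of cells given SSD (saikosaponin-D, a triterpene saponin of the herb Radix Bupleuri) for 24 h. These groups follow the sample labels and the methods of the study, which name AGS cells and SSD. The protocol fields of the same samples name C4-2B cells and 10 μM of a compound written L14-8, while the methods give a lower dose. Whether that compound is SSD, which dose was used and whether the growth field belongs to these cells are not settled. The labels do not say whether the libraries of a group came from separate cultures, and p-values then measure the spread between these libraries, which may be technical.

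Solute carriers are membrane proteins that move a substrate down its own gradient or couple it to the gradient of an ion, and they supply cells with amino acids, sugars, phosphate and choline. ABC proteins bind and hydrolyse ATP, and most of them pump lipids, drugs or peptides across membranes. Cancer cells can depend on some of them, such as the cystine importer that feeds glutathione synthesis.

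Estimated counts over the 1099 genes summed to between 3084340 and 4640110 per library. These sums cover part of each library, since the same genes held 30.1% to 33.1% of its TPM (a read share scaled to a fixed total per library and corrected for gene length), and total depth is unknown. Of the 12 marker genes checked, the epithelial markers were not in the table, so the labelled identity could not be checked, and VIM at 4.32 to 12.2 TPM and COL1A1 at 10 to 15.76 TPM were the only markers of other cell types listed. Fold changes are of SSD over vehicle on a whole-library scale, set by how many counts make 1 TPM in a library. On this scale the median log2 fold change of all 1099 genes was -0.14, and on the TMM scale (edgeR's trimmed mean, computed over the table) it was -0.06. Such libraries give shares of their own reads, so fewer cells and less RNA per cell can be neither seen nor told apart.

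A gene was called where edgeR's quasi-likelihood fit gave an adjusted p under 0.05 (Benjamini-Hochberg over 11289 genes). The fit estimated spread from the 1099 listed genes alone, which had been picked by small p in these same libraries. Its p-values may therefore be too small, and by how much was not tested. At an adjusted p under 0.05, 4 of the 14 members were higher under SSD and 3 were lower. Over the table, 355 genes (32.3%) were higher and 221 (20.1%) lower, so the members' shares of 28.6% and 21.4% lay close to those of all genes and are no result about transporters as a class. The median log2 fold change was -0.20 over the members, with 4 above 0 and 10 below, and the SD of the members' median between libraries of a group was 0.0627. Scaled counts of the 2 groups did not overlap for 4 members that were higher, against 34.9% of all genes, and for 8 that were lower, against 52.8%. On the TMM scale the same number, 4, was higher but 1 was lower, and the table gave 385 higher and 87 lower. Leaving out vehicle library 2, vehicle library 3 or SSD library 2 left 0 members higher and 1 lower, whereas 6 were lower without SSD library 3. The whole table moved with these fits, to between 107 and 130 genes higher and 66 to 74 lower in the first 3, and to 336 lower without SSD library 3. Of the members called, ABCA1 had the largest change and alone kept its call under each of the 16 alternatives. Not all of these could lose a call. The fit without edgeR's filter for low expression equalled the main fit, because all genes passed that filter. Adjustment over the table alone can only lower an adjusted p.

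Vehicle levels of the members ran from 4.15 to 306 TPM on average. Under vehicle, SLC38A2 had the highest level, at 306 ± 13.3 TPM (SD, n = 3), followed by ABCE1 at 110 ± 0.583 TPM. Then came SLC4A2 at 86.0 and SLC20A2 at 77.9 TPM, whose ranges overlapped, and SLC7A11 at 65.2 TPM. SLC2A4RG and SLC1A3, at 45.3 and 44.1 TPM, could not be ordered, and SLC44A1 lay just below them at 39.5 TPM. SLC25A30 at 24.6 TPM lay above SLC7A6 at 18.4 TPM without overlap. SLC45A3 had 9.19 TPM, and SLC24A1 and ABCA1, again overlapping, closed the order at 4.90 and 4.15 TPM.

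The lipid and choline group held ABCA1 and SLC44A1, which moved in opposite directions. ABCA1 exports cholesterol and phospholipid to apolipoprotein A-I and is a textbook target of the sterol-sensing liver X receptors. It lies on chromosome 9 (GRCh38, 104781002 to 104928237, minus strand) and no exon of another gene overlaps its exons. ABCA1 stood at 3.94, 4.24 and 4.28 TPM with vehicle, compared with 2.18, 2.06 and 2.61 TPM after SSD. Each SSD library thus lay below each vehicle library, and the SSD library with the highest level was replicate 3. The scaled counts, which are the estimated counts divided by the library scale, fell from 490 ± 27.0 to 269 ± 52.2 (SD, n = 3 each), a fall of 45.3%. On the log2 scale ABCA1 fell by 0.87 (standard error 0.123), and the adjusted p was 0.00429. This call was made under all 16 alternatives, with log2 values from -1.04 to -0.65 and adjusted p from 6.27e-08 to 0.0306, which includes leaving out each library in turn. Permuting the TPM of ABCA1 exactly (two-sided) gave p = 0.1, the smallest that 3 libraries against 3 allow.

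SLC44A1, a choline transporter of the plasma and mitochondrial membranes, measured 38.35, 40.98 and 39.02 TPM in vehicle cells against 42.60, 45.30 and 49.29 TPM in SSD cells. The groups did not overlap, although the gap between them was smaller than the spread within the SSD group. It changed by log2 0.27 ± 0.0615 (the error is the standard error, as for each log2 value here), adjusted p = 0.0283. The call was lost in 7 of the 16 alternatives, among them leaving out any vehicle library or SSD library 2, and its adjusted p then reached 0.305.

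Among the 4 amino acid carriers, 1 was higher, 1 was lower and 2 did not pass the test. SLC7A11, the light chain of the cystine and glutamate exchanger xCT and a textbook target of ATF4 and NRF2, had 66.97, 62.78 and 65.91 TPM under vehicle. Its SSD libraries had 74.51, 76.98 and 84.60 TPM, all above the vehicle libraries. The means were 65.2 ± 2.18 and 78.7 ± 5.26 TPM (SD, n = 3 each), and the log2 fold change was 0.27 ± 0.0581 with an adjusted p of 0.0195. An annotated antisense gene, SLC7A11-AS1, overlaps its exons, and whether reads were counted by strand is not given in the sources used here. The call of SLC7A11 was lost in 5 of 16 alternatives: both tests on log2 TPM and leaving out vehicle 2, vehicle 3 or SSD 2, with an adjusted p up to 0.115.

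SLC7A6, the light chain of y+LAT2, which exchanges cationic for neutral amino acids, was lower in counts but less clearly so in TPM. Its scaled counts were 791, 816 and 901 under vehicle and 702, 651 and 655 under SSD, without overlap, and the log2 fold change was -0.32 ± 0.0718 with an adjusted p of 0.0249. In TPM the vehicle values 15.42, 17.81 and 21.84 met SSD values of 16.04, 18.27 and 14.15, which overlap. Exons of SLC7A6OS lie on the opposite strand at the same place, and 9 of 16 alternatives lost the call, including TMM (log2 -0.24, adjusted p = 0.159).

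SLC1A3, the glial-type glutamate and aspartate importer EAAT1, stood at 42.01, 41.36 and 49.00 TPM with vehicle and at 28.75, 31.33 and 42.72 TPM after SSD. SSD library 3 alone lay within the vehicle range. The log2 fold change was -0.36 ± 0.123 with an adjusted p of 0.182, and without SSD library 3 it was -0.54 with an adjusted p of 0.00212. With every library kept, SLC1A3 passed with DESeq2's Wald test (adjusted p = 0.0463) and with the replicate number as a block (edgeR, 0.0450). It also passed with adjustment over the table alone (edgeR, 0.0177), and 12 of 16 alternatives left it without a call. SLC38A2, the sodium-coupled neutral amino acid importer SNAT2, whose mRNA is known to rise on amino acid shortage, had the most TPM of all members and the least change. Its TPM ran from 291 to 316 under vehicle and from 269 to 316 under SSD, with a log2 fold change of -0.07 ± 0.0626 and an adjusted p of 1, and the sign turned on the TMM scale (0.01) and with DESeq2's size factors (0.03).

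Of the 3 ion carriers, SLC24A1 was higher and SLC20A2 and SLC4A2 did not pass the test. SLC24A1, a sodium, calcium and potassium exchanger best known from rod photoreceptors, had scaled counts of 172, 156 and 152 under vehicle and 212, 231 and 246 under SSD. The groups did not overlap, and the log2 fold change of 0.52 ± 0.114 (adjusted p = 0.0220) was the largest rise among the members. The call was lost in 6 of 15 alternatives, among them both tests on log2 TPM and leaving out vehicle 2, vehicle 3 or SSD 2. Its TPM gave another picture: 6.32, 4.31 and 4.06 under vehicle against 4.87, 4.77 and 6.25 under SSD, with the highest value in a vehicle library. On log2(TPM + 1) the change was 0.11 with an adjusted p of 1 (limma).

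Counts and TPM part because the number of scaled counts that make 1 TPM, which follows the gene length the authors' program used in that library, was not constant for this gene. It was 27.3, 36.2 and 37.5 in the vehicle libraries and 43.4, 48.4 and 39.4 in the SSD libraries, a mean change of 30.1%. Over the 1057 genes with a mean of at least 5 TPM, the median ratio between the groups was 0.993, and 4.54% of them changed by over 10%. Among the members, SLC24A1 was the only gene past 10%, and SLC7A6 came next with -9.18%, while ABCA1 changed by -0.572%. SLC24A1 had a mean of 193 counts, the lowest of the members, and exons of DENND4A and of AC011939.3 overlap its exons on the opposite strand. What part the shift in counts per TPM had in the call of SLC24A1 was not tested.

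**Figure D1:**
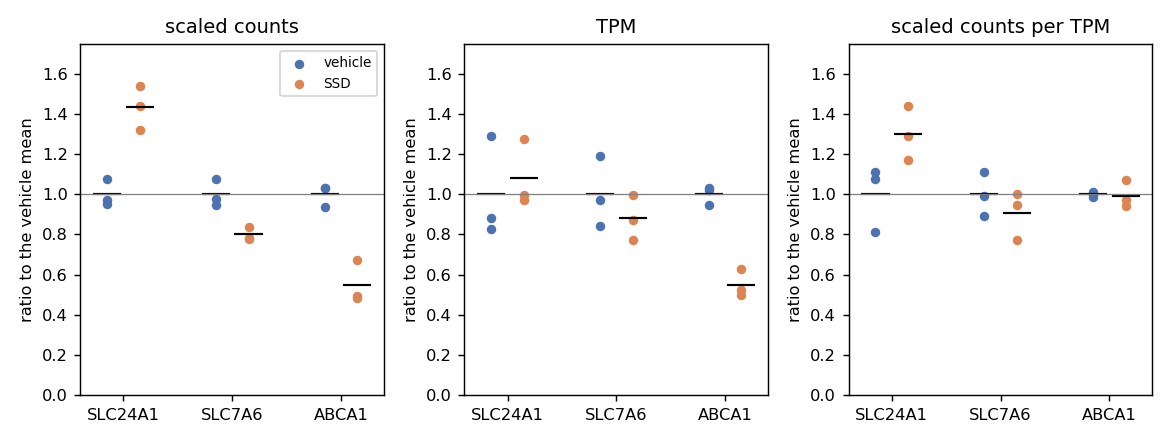
Values of SLC24A1, SLC7A6 and ABCA1 in each library as a ratio to the vehicle mean of that gene, for scaled counts (left), TPM (middle) and scaled counts per TPM (right), with 1 point per library, 3 per group, and a line at each group mean. SLC24A1 was separated in counts (log2 0.52) but not in TPM, with 30.1% more counts per TPM under SSD, whereas ABCA1 fell alike in both.

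SLC4A2, the anion exchanger AE2 that trades chloride for bicarbonate, and SLC20A2, the sodium-phosphate importer PiT2, had log2 fold changes of -0.18 ± 0.0653 and -0.18 ± 0.0791. Their adjusted p were 0.227 and 0.499. Scaled counts of both were lower under SSD without overlap, with a lowest vehicle value of 2692 and a highest SSD value of 2666 for SLC4A2. In TPM both overlapped between the groups, with SLC4A2 between 70.95 and 97.39 TPM with vehicle and between 64.92 and 83.55 TPM after SSD, and both lay near the median of all genes in the table.

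Neither of the 2 mitochondrial carriers passed the test. SLC25A30, a carrier of the uncoupling protein branch, stood at 22.61, 25.95 and 25.36 TPM with vehicle and at 20.01, 20.06 and 19.07 TPM after SSD. The 2 groups did not overlap, with a log2 fold change of -0.21 ± 0.0636 and an adjusted p of 0.110.

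SLC45A3, known as prostein from prostate and related to sugar transporters, was the only member of the sugar group. Its TPM were 8.23, 10.28 and 9.06 under vehicle and 6.97, 7.51 and 7.82 under SSD. All SSD values lay below the vehicle values, but the log2 fold change of -0.34 ± 0.108 had an adjusted p of 0.147. No gene of the metal carrier families was among the members.

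A pair of members carry a transporter's symbol without being one. ABCE1 has ATP-binding domains but no membrane domains and splits ribosomes after translation ends. It stood at 109.57, 109.16 and 110.31 TPM with vehicle and at 92.65, 94.56 and 98.29 TPM after SSD. The vehicle libraries were nearly identical and the SSD libraries all lay below them, with a log2 fold change of -0.23 ± 0.0540 and an adjusted p of 0.0319. The median of all genes in the table was -0.14 beside it. On the TMM scale and in 10 other alternatives of 16 the call was lost, with an adjusted p up to 0.324. Exons of ANAPC10, OTUD4 and AC098588.1 on the opposite strand overlap those of ABCE1. SLC2A4RG is a DNA-binding regulator named for the gene of the glucose transporter GLUT4. It measured 44.05, 43.68 and 48.27 TPM in vehicle cells against 56.83, 62.54 and 62.89 TPM in SSD cells, with no overlap. Its log2 fold change was 0.37 ± 0.0773 with an adjusted p of 0.0170, lost in 4 of 16 alternatives. Exons of AL121845.2, on the same strand, overlap those of SLC2A4RG, so counting by strand would not separate their reads there. Without ABCE1 and SLC2A4RG, the transporters proper were 3 higher and 2 lower of 12.

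**Figure D2:**
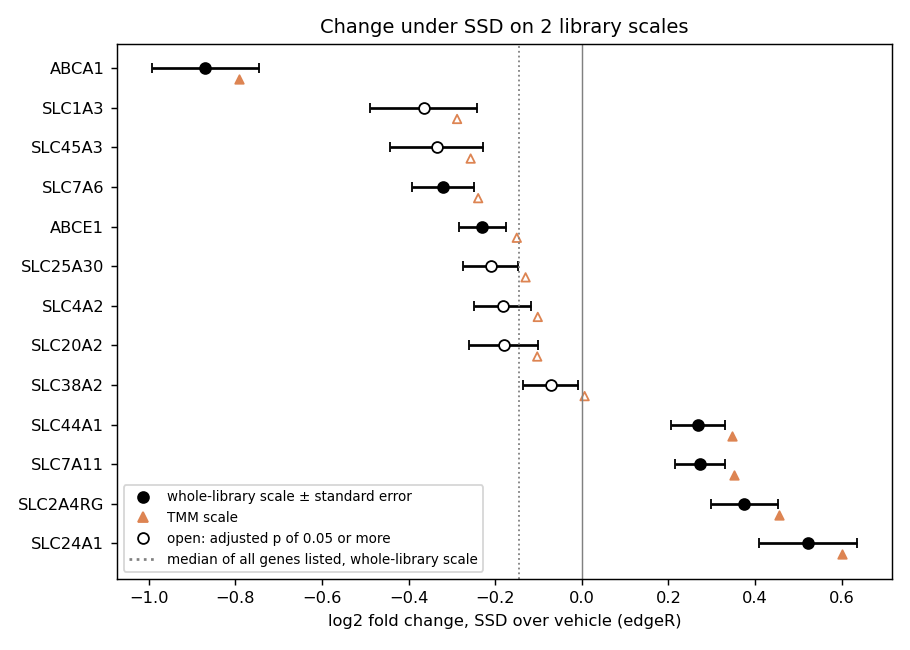
Log2 fold change of 13 of the 14 members, SSD over vehicle, on the whole-library scale (circles, bars are ± 1 standard error) and on the TMM scale (triangles), from 3 libraries per group, filled where the adjusted p was under 0.05. The TMM values lie to the right of the circles, and ABCA1 at -0.87 and -0.79 is the only lower gene filled on both scales.

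The start sites of the members were examined for 3 motifs, on both strands, in windows of 250 bases before to 50 bases after each RefSeq start (GRCh38.p14). Windows were at hand for 10 members, 17 windows in all. The E-box CACGTG, bound by Myc and related factors, was found for 2 of the 10 members (ABCA1 and SLC4A2) and for 8.77% of all 27305 genes with windows. By windows this was 3 of 17, of which both SLC4A2 windows overlap and share matches, against 7.26% of all 35116 windows. The amino acid response letters TTGCATCA were found for 1 member (SLC1A3) and for 1.08% of all genes, and the antioxidant response letters TGACNNNGC for 3 members (SLC24A1, SLC1A3 and SLC7A6) and for 16.1%. A match is a description of the sequence and not a bound site. The upstream parts that no annotated exon covers are shown for the called members that hold a motif, because these are the genes whose change was past the test. The motif is in capitals.
ABCA1, chr9:104928238-104928405, minus strand: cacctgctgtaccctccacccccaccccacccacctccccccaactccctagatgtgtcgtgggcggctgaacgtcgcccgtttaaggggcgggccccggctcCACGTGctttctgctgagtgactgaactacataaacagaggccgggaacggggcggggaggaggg
SLC24A1, chr15:65621688-65621931, plus strand: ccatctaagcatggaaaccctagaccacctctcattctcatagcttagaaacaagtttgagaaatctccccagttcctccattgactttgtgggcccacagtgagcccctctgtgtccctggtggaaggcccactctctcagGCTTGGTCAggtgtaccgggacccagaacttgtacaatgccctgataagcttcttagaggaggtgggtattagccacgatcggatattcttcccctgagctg
SLC7A6, chr16:68264276-68264515, plus strand: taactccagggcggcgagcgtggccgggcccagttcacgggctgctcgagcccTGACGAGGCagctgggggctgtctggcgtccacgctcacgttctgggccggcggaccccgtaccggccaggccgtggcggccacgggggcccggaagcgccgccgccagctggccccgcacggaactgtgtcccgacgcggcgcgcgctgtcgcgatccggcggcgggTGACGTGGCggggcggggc
The E-box of ABCA1 begins at -147 from the start. SLC24A1 has its match at -108 of an internal start, on the other strand, and not at its first start. SLC7A6 holds the motif at -197 and at -29. Of the called members with the antioxidant response letters, SLC7A6 was lower and SLC24A1 higher in counts, while the E-box members ABCA1 and SLC4A2 had log2 fold changes of -0.87 and -0.18.

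Genes of related pathways, from lists drawn up with earlier results known, were read beside the carriers, and their counts stand beside the 32.3% of all genes in the table that were higher and the 20.1% that were lower. In the list for sterol synthesis and response, 5 of 33 names were in the table, of which 1 was higher and 3 lower. MYLIP, a ubiquitin ligase of lipid metabolism and, like ABCA1, a liver X receptor target, averaged 10.8 TPM with vehicle and 7.65 TPM after SSD, with a log2 fold change of -0.50 (adjusted p = 0.0262). Whether liver X receptors had a part in this was not tested. The fatty acid synthase FASN was lower by log2 -0.29 (adjusted p = 0.0489), though its TPM overlapped between the groups. INSIG1, which retains the sterol sensor in the endoplasmic reticulum, was higher by 0.65 (adjusted p = 0.0170). Its level was low, at a mean of 3.18 TPM with vehicle and 4.83 TPM after SSD. On the TMM scale MYLIP and INSIG1 kept their calls and FASN did not, and none of the list was called without vehicle 2, vehicle 3 or SSD 2 or on log2 TPM.

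All 5 of 27 metal handling names in the table were higher, on each scale: the ferritin chains FTH1 (log2 0.36) and FTL (0.39), heme oxygenase HMOX1 (0.65), the metallothionein MT2A (0.56) and the siderophore binder LCN2 (0.79), with adjusted p from 0.00366 to 0.0132. Between 2 and 5 of them were called when a library was left out, the fewest without vehicle 3 (FTH1 and FTL). FTL rose from 6618 to 8845 TPM. HMOX1 and both ferritins are, like SLC7A11, known NRF2 targets, and the log2 fold change of SLC7A11 was 0.27. Whether NRF2 had a part in these changes was not tested.

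In the amino acid response list, 2 of 35 names were in the table, and CEBPB, a bZIP factor that can pair with ATF4, was higher by 0.49 (adjusted p = 0.00566). From 23 glycolysis names, HK2, the hexokinase that traps glucose, and PFKFB3, which makes the activator of phosphofructokinase, were in the table and lower by -0.26 and -0.35 (adjusted p = 0.00994 and 0.0133), but neither was called on the TMM scale, with DESeq2's size factors, or without vehicle 3 or SSD 2. In the ion pump list, 7 of 31 names were in the table and 2 were higher, ATP9A (0.35, adjusted p = 0.00254) and ATP8A1 (0.44, adjusted p = 0.0207). Both are lipid flippase-type ATPases rather than ion pumps. Genes of that type did not move together. ATP11A, on the same list, was not called (-0.12, adjusted p = 0.414), and ATP8B3, outside the list, was lower (-0.58, adjusted p = 0.0201). Of the list, ATP9A alone was called higher on log2 TPM, and without any one vehicle library or SSD 2. The TPM of ATP8A1 overlapped between the groups. Of 38 names for mitochondrial import, 7 were in the table and 3 were lower: the chaperonin HSPE1 (-0.33, adjusted p = 0.0101), GRPEL1 (-0.27, adjusted p = 0.0172) and the translocase subunit TIMM17A (-0.24, adjusted p = 0.0349). On the TMM scale HSPE1 alone of these was called, and without vehicle 2, vehicle 3 or SSD 2 none was.

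**Figure D3:**
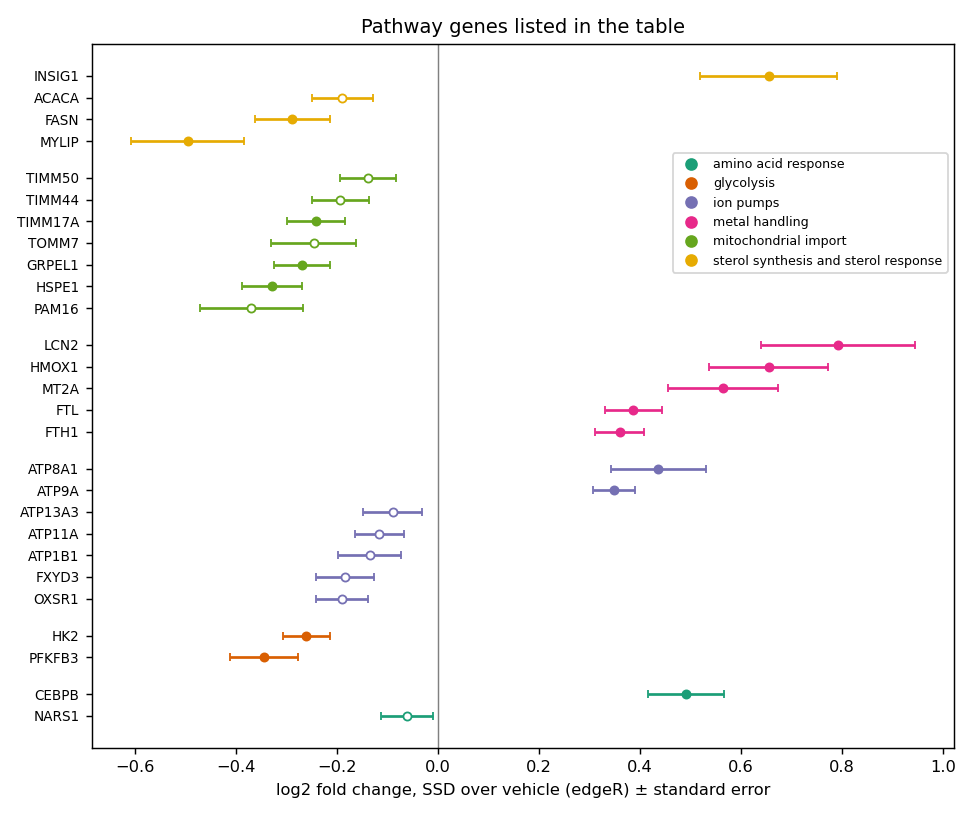
Log2 fold change, SSD over vehicle, with ± 1 standard error for genes of 6 pathway lists that are in the table, coloured by list and filled where the adjusted p was under 0.05, from 3 libraries per group on the whole-library scale. The 5 metal handling genes lie between 0.36 and 0.79, and MYLIP at -0.50 has the lowest value.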

How the data were processed

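RNA-seq of 6 libraries was used, 3 vehicle and 3 SSD, grouped by their labels. The submitters' processing notes name GRCh38.p13, and the aligner and counting program are not given in the sources used here. The deposited estimated counts per gene (33.5% not whole) were made by the authors on a commercial platform and were rounded here. Deposited TPM are relative to every gene of a library, also those outside the table. The log2 fold changes and the p-values deposited by the authors hold their own comparison, and served only to learn that 11289 genes had been tested.

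The test was edgeR 4.0.16 (R 4.3.3), quasi-likelihood, no covariate, with libraries scaled by the median ratio of counts to TPM over 1057 genes, because TMM assumes that most genes are unchanged and the table was selected for change. All genes passed edgeR's filter for low expression. Benjamini-Hochberg adjustment ranked unlisted genes behind the listed ones. Standard errors were derived from the F statistic. In simulated counts the test recovered 103 of 108 genes changed by a log2 of 0.5, with 0 false calls. This rate does not describe smaller changes, and all members but ABCA1 (log2 -0.87) and SLC24A1 (0.52) changed by less. Simulated counts need not share the spread of these libraries, so the 0 false calls are no error rate for them. Alternatives were other scales, DESeq2 1.42.0, limma 3.58.1 on log2 TPM with a pseudocount of 1 or 0.1, filters, a replicate block, each library left out, and adjustment over the table alone.

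Members and lists were chosen with earlier results of these data known. Values per library are given for members with an adjusted p under 0.05 and a change of at least 1.25-fold and for the member with the smallest p of each other group. SLC7A6, SLC44A1 and SLC1A3 were added after their values were seen. Other genes are named from the lists at an adjusted p under 0.05, apart from the genes under other observations and from ATP11A and ATP8B3. Those last were added after their values were seen. The plot of pathway genes also labels those that did not pass. Genes and exons are from GENCODE 29. SLC7A11, SLC20A2 and SLC25A30 had no promoter window in use. Single values of 1 member and of 1 list gene are not reported here, though both are in the counts and medians. Protein sequences were not used here.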

Additional observations from a re-analysis of the deposited data

How the results depend on the processing

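Of 223 comparisons of a single member with its main value under an alternative, 167 kept direction and side of the threshold, 42 lost the call, 12 gained it and 2 reversed, both for SLC38A2: 0.00639 with TMM and 0.0259 with DESeq2's size factors over the table. All lost calls fell on the members called in the main fit, since the others had no call to lose. The 167 also hold the fit without a filter, which repeated the main values. They are therefore no measure of how steady the calls were. The main counts of 4 higher and 3 lower became 1 lower with TMM, with DESeq2's size factors and with the table total as scale, 1 higher and 1 lower with limma at either pseudocount, and 9 lower with adjustment over the table alone. Leaving out 1 library gave 0 to 4 higher and 1 to 6 lower: 0 higher and 1 lower without vehicle 2, vehicle 3 or SSD 2, and 6 lower without SSD 3. Over all genes the first 3 of these gave 107 to 130 higher and 66 to 74 lower, and the last 336 lower. The median log2 fold change of the members was -0.116 with TMM and -0.0965 with DESeq2's size factors. The cause was not tested, beyond the number of libraries and genes each alternative uses. Over all 1099 genes, TMM gave 87 lower in place of 221, limma on log2(TPM + 1) gave 114 higher in place of 355 and 75 lower, and adjustment over the table alone gave 598 lower.

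Samples with the same replicate number did not deviate together: the correlations were -0.231, -0.0103 and -0.0324, so the numbers were not taken as pairs. With the replicate number as a block, 1 member was higher and 2 were lower, and over all genes 186 were higher and 109 lower. SLC24A1 was not tested under the minimum mean of 200 counts. Total depth is unknown, which limits what can be said of genes at few counts such as SLC24A1.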

Other observations

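A few genes of the SLCO and TAP names, which fall outside the rule, were looked up after the members' values were seen. Carriers outside the rule were not searched as a whole. SLCO2A1, a prostaglandin importer, stood at 1.94, 2.39 and 2.62 TPM with vehicle and at 3.52, 4.59 and 3.16 TPM after SSD, a log2 fold change of 0.73 with an adjusted p of 0.0277 (edgeR). TAP1, an ABC subunit that pumps peptides into the endoplasmic reticulum for antigen presentation, measured 31.58, 32.06 and 30.05 TPM in vehicle cells against 41.44, 39.04 and 43.37 TPM in SSD cells, with 0.42 and an adjusted p of 0.00577. TAPBP, which tethers that pump to class I molecules, was higher by 0.34 with an adjusted p of 0.00857. SLCO4A1, an organic anion importer, had a log2 fold change of -0.22 and an adjusted p of 0.153. Other carriers in the table moved either way. Of the chloride and proton exchangers, CLCN5 was lower (-0.24, adjusted p = 0.0169) and CLCN7 was higher (0.32, adjusted p = 0.0132).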
